A study of Mus musculus with 2 samples.

Results

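The middle band of a periportal-to-pericentral zone score held 516 of the 1546 cells kept as hepatocytes, out of 6116 cells deposited for 2 liver libraries. A cell was kept when mitochondrial genes gave at most 10% of its counts, its total lay between 8000 and 60000 counts, and 9 genes of other liver cell types (Ptprc, Siglec1, Fyb, Ptprb, Egfl7, Reln, Pdgfrb, Epcam and Krt19) summed to fewer than 3 per 10000 counts. The score z of a cell is the log2 ratio of the raw counts of the pericentral genes Glul, Oat, Cyp1a2 and Cyp2e1, plus 1, to those of the periportal genes Hal, Sds, Gls2 and Cyp2f2, plus 1. Members were thus selected on measured counts: cells were ranked by z within each library and cut into 3 bands of equal size, the periportal, middle and pericentral band. The middle band comprised 268 of 803 hepatocytes in the library labelled AEG-1DMAC and 248 of 743 in the library labelled AEG-1fl/fl.

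Each genotype had 1 library, made from liver of mice 27 weeks old that had received HF/HSD, a diet rich in fat and sugar, for 20 weeks from the age of 7 weeks. AEG-1fl/fl mice carry floxed alleles of Mtdh, which encodes AEG-1, and serve as controls, on a C57BL/6/J background. AEG-1DMAC mice carry the same floxed alleles together with Cre expressed from Lyz2, a gene of myeloid cells, so the hepatocytes described here are not themselves the target of the deletion. The tissue was flash-frozen, fixed and dissociated, and gene-specific probes hybridized to RNA were counted in each cell. The sex of the animals and whether a library pooled several livers are not given in the sources used here. With 1 library per genotype there was no replicate and no test, and genotype and library cannot be told apart. The libraries shared 10 cell barcodes, of which 3 (AEG-1DMAC) and 5 (AEG-1fl/fl) were among the hepatocytes kept. All 95% intervals of values and ratios are Poisson or Clopper-Pearson intervals of the counts. They cover counting error only, not variation between cells or between mice. Intervals of shares of cells are taken over the cells of 1 library, which are not replicates, and also leave out variation between mice.

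Across the liver lobule, blood flows from the portal tract to the central vein, and hepatocytes along this path divide metabolic work among them. Gluconeogenesis, urea synthesis and the secretion of many plasma proteins lie mainly toward the portal side, whereas glutamine synthesis, bile acid synthesis and cytochrome P450 metabolism lie toward the central vein. Cells between them are called midlobular, and Hamp, Hamp2 and Igfbp2 have been used as their markers. Hamp encodes hepcidin, the hormone that blocks iron export by degrading ferroportin, and its transcription in hepatocytes is raised by BMP signals through SMAD proteins and by interleukin 6 through STAT3. Hamp2 is a mouse duplicate of Hamp, and Igfbp2 encodes a secreted protein that binds insulin-like growth factors.

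The promoters of Hamp and Hamp2 are shown because both genes were read as midlobular markers and their counts may be hard to separate. Each sequence is the 250 bases before the RefSeq transcript start on the minus strand of GRCm38.p6, at chr7:30944030-30944279 for Hamp and chr7:30924182-30924431 for Hamp2, written 5′ to 3′. Capitals mark exact matches to GGCGCC, the core of the BMP-responsive element, and to TTCTTGGAA, a STAT site.

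Hamp: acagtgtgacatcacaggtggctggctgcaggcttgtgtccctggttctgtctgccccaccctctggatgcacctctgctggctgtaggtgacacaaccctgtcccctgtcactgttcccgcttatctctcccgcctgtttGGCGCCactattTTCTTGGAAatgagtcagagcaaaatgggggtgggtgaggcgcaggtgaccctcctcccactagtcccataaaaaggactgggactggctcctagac

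Hamp2: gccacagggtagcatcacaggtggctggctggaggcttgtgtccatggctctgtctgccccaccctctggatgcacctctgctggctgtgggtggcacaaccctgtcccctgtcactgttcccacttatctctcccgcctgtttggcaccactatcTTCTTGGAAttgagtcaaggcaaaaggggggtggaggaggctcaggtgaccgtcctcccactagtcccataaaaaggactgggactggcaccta

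In Hamp the matches began at -109 and -97 from the transcript start. In Hamp2 TTCTTGGAA began at -94, while the stretch aligned to GGCGCC read GGCACC, the substitution G4A counted from 1 at the first base of GGCGCC. Both strands were searched over 32851 RefSeq promoter windows of 250 bases, of which 9.59% held GGCGCC and 0.365% held TTCTTGGAA, and the letters of the motifs do not overlap in these genes. The windows of Igfbp2 held neither. A match of letters shows no binding. The windows of Hamp and Hamp2 were 89.7% identical (227 of 253 aligned positions), and their transcripts were 92.4% identical (388 of 420 positions). Hamp (ENSMUSG00000050440, chromosome 7, 30942368 to 30944032) and Hamp2 (ENSMUSG00000056978, chromosome 7, 30922372 to 30924681) lie 17687 bases apart in the GENCODE annotation of GRCm38. Probe sequences were not analysed here, so the split of counts between these near-identical copies is uncertain. Igfbp2 (ENSMUSG00000039323) lies on chromosome 1 from 72824503 to 72852474.

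The score defined the bands, so its own values are a description. In the middle band, z ranged from 0.938 to 4.37 (median 2.93) in the AEG-1DMAC-labelled library and from 0.476 to 4.29 (median 2.52) in the AEG-1fl/fl-labelled library. The edges were not gaps in the distribution. At the lower edge, the cells just outside and just inside had z of 0.9373 and 0.9377 in the first library and 0.415 and 0.4764 in the second, and 33 and 20 cells lay within 0.25 of it. At the upper edge the neighbouring cells stood at 4.369 and 4.375, and at 4.285 on both sides, with 53 and 35 cells within 0.25. The middle band is therefore a range of a continuous score. Median depth was 21686 counts and 4646 genes per cell in the AEG-1DMAC-labelled library and 18502 counts and 4014 genes in the AEG-1fl/fl-labelled library.

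**Figure D1:**
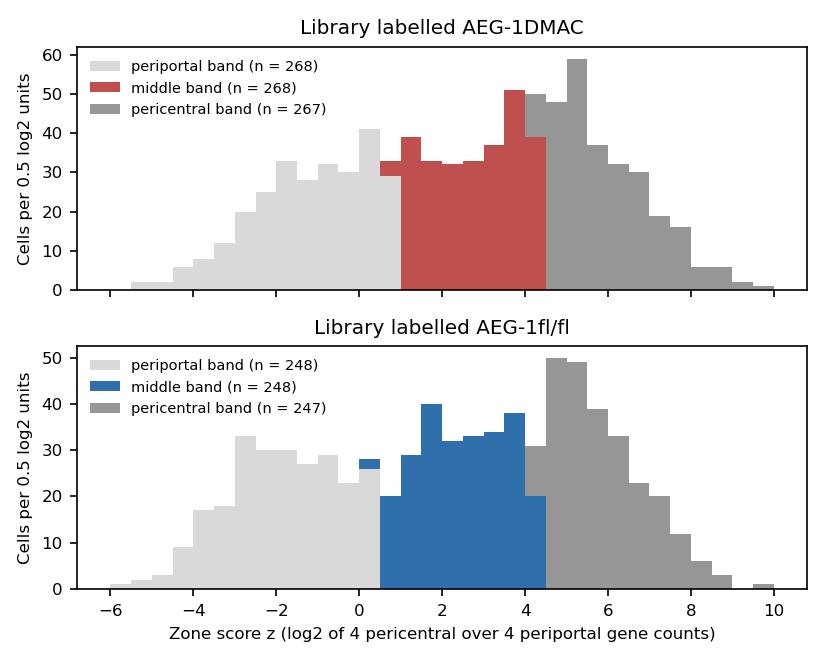
Number of hepatocytes (vertical axis, cells per bin of 0.5 log2 units, stacked) by zone score z (horizontal axis, log2) in each library, with the middle band in color. Scores run without a gap through both edges of the middle band, from 0.938 to 4.37 in the AEG-1DMAC-labelled library and from 0.476 to 4.29 in the AEG-1fl/fl-labelled library.

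The midlobular name was checked first against its markers, and Hamp went against it in both libraries. Values are CPM, the counts of a gene per 1000000 counts summed over the cells of a band. Hamp had 291, 173 and 94.0 CPM in the periportal, middle and pericentral bands of the AEG-1DMAC-labelled library (1988, 1158 and 647 counts). In the AEG-1fl/fl-labelled library the same bands had 410, 169 and 65.5 CPM (2551, 961 and 443 counts). Hamp was thus highest in the periportal band in both libraries. The middle band lay below the periportal band by a log2 ratio of -0.75 (-0.85 to -0.64) and -1.28 (-1.39 to -1.17), and above the pericentral band by 0.88 (0.74 to 1.02) and 1.37 (1.20 to 1.53).

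Hamp2 had the same order of values at a much lower level. It had 12.4, 9.57 and 2.76 CPM along the bands of the AEG-1DMAC-labelled library (85, 64 and 19 counts) and 8.04, 2.11 and 0.89 CPM in the AEG-1fl/fl-labelled library (50, 12 and 6 counts). The log2 ratio of the middle to the periportal band was -0.38 (-0.87 to 0.11), an interval that includes no difference, and -1.93 (-2.97 to -1.0). With cells of 12000 to 40000 counts the first ratio turned to 0.48 and the second was -0.76, so the place of Hamp2 in the AEG-1DMAC-labelled library was not settled at this depth.

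Igfbp2 was the marker that stood above both outer bands. Its values were 137, 212 and 117 CPM in the AEG-1DMAC-labelled library (935, 1421 and 808 counts) and 181, 200 and 93.5 CPM in the AEG-1fl/fl-labelled library (1128, 1135 and 632 counts; the exact middle value is 199.7). Over the periportal band, the higher of the outer ones, the log2 ratio was 0.63 (0.51 to 0.76) and 0.14 (0.02 to 0.26). The second excess was small, and 2 other ways of weighting the score genes reversed its sign, at -0.19 with equal weight of the 8 score genes and -0.14 without Cyp2e1 and Cyp2f2. Because Hamp goes against the midlobular label in both libraries, and Hamp2 in the AEG-1fl/fl-labelled library, the cells are called the middle band throughout.

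Dividing the score into 9 equal parts gave the same picture at a finer scale. Hamp was highest in the most periportal ninth, at 339 CPM in the AEG-1DMAC-labelled library and 532 CPM in the AEG-1fl/fl-labelled library, and lowest in the most pericentral ninth, at 45.8 and 34.8 CPM. Within the middle band, ninths 4, 5 and 6 had 199, 194 and 128 CPM of Hamp in the first library and 205, 212 and 96.1 CPM in the second. Igfbp2 had its highest value inside the middle band, 226 CPM in ninth 5 of the AEG-1DMAC-labelled library and 270 CPM in ninth 4 of the AEG-1fl/fl-labelled library. At the periportal end the libraries parted, with 36.4 CPM (28.7 to 45.5) of Igfbp2 in ninth 1 of the former and 154 CPM (137 to 172) in the latter. At the pericentral end Igfbp2 was down to 83.6 and 42.9 CPM.

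**Figure D2:**
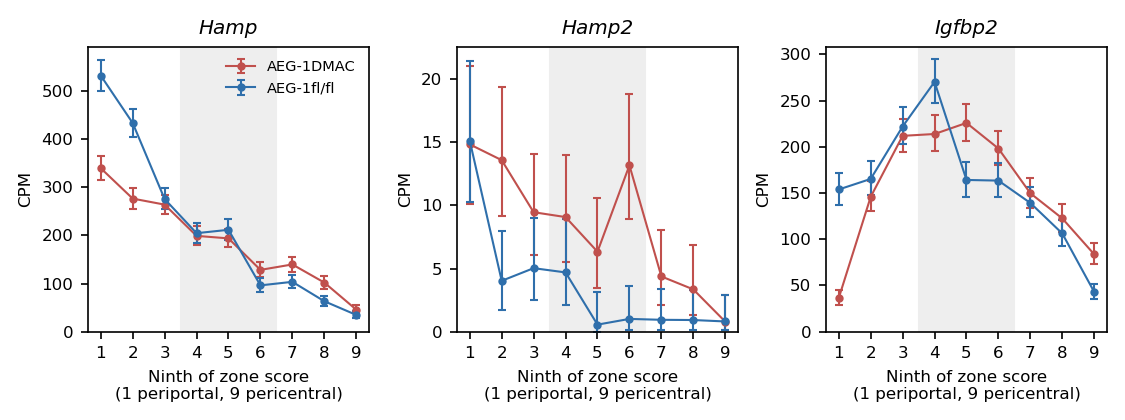
CPM (vertical axis) of Hamp, Hamp2 and Igfbp2 in 9 equal parts of the zone score (horizontal axis, 1 most periportal), 1 line per library, with 95% Poisson intervals as bars and the middle band shaded. Hamp is highest in ninth 1 of both libraries (339 and 532 CPM), whereas Igfbp2 is highest within the shaded ninths (226 and 270 CPM).

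Per cell, the markers were unevenly shared. To compare cells of unequal depth, each was thinned to 8000 counts. At that depth Hamp had a count in 66.8%, 50.7% and 31.5% of cells along the bands of the AEG-1DMAC-labelled library, and in 75%, 50.4% and 30.8% in the AEG-1fl/fl-labelled library. The unthinned shares in the middle band were 75% and 71.4%. As a background, 39.4% and 37.4% of cells with at least 20 counts per 10000 of the 9 nonparenchymal genes had a Hamp count at the same depth (71 and 198 cells with 8000 or more counts). Unthinned, at a median depth of 4378 and 4386 counts, those shares were 22.9% and 28.1%. The pericentral share of Hamp lay below this background. Its mean thinned count there, 0.805 and 0.640 per cell, lay above that of the background cells, 0.479 and 0.530. The background cells also held hepatocyte RNA, with a Cyp2e1 count in 95.8% and 90.9% of them. They are therefore no floor for Hamp, and the shares alone do not settle whether pericentral cells express it. The interval of the middle share, 44.6% to 56.9% in the AEG-1DMAC-labelled library, overlaps that of the background there, 28.0% to 51.7%, and the corresponding intervals of the AEG-1fl/fl-labelled library, 44.0% to 56.8% and 30.6% to 44.5%, just overlap.

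For Igfbp2 the thinned shares were 51.9%, 73.9% and 49.1% in the AEG-1DMAC-labelled library and 57.3%, 59.3% and 36.4% in the AEG-1fl/fl-labelled library, against backgrounds of 45.1% and 18.2%. In the middle band the 95% intervals were 68.2% to 79.0% and 52.9% to 65.4%, and the unthinned shares were 89.6% and 79.4%. Hamp2 had a count in 5.97% (3.45% to 9.51%) and 2.02% (0.658% to 4.64%) of middle-band cells, against backgrounds of 4.23% (0.880% to 11.9%) and 1.01% (0.123% to 3.60%), which the intervals do not separate. Hamp was also the more concentrated: the 10% of middle-band cells richest in each gene held 53.8% and 54.4% of its counts, compared with 33.6% and 41.0% for Igfbp2.

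Other zonated genes placed the middle band between its neighbours. These lists were not part of the score. Of 24 pericentral genes with enough counts (at least 200 over the 3 bands in each library), 24 had CPM in the order periportal, middle, pericentral in both libraries, beside 31.9% of all 7837 genes with as many counts. Of 15 periportal genes, 14 had the opposite order in both, beside 4.02% of all genes. Cyp2c29, a cytochrome P450 of drug and fatty acid metabolism, had 170, 581 and 975 CPM along the bands of the AEG-1DMAC-labelled library and 40.0, 152 and 305 CPM in the AEG-1fl/fl-labelled library. Slc1a2, a glutamate transporter, had 21.5, 110 and 761 CPM and 15.3, 38.9 and 279 CPM. Of the urea cycle genes, Ass1, which makes argininosuccinate, had 3475, 2317 and 1142 CPM and 2443, 1395 and 629 CPM. Aldh1b1, an aldehyde dehydrogenase, had 220, 54.1 and 15.4 CPM and 236, 35.7 and 10.2 CPM. The exception was G6pc, which encodes the glucose 6-phosphatase that releases glucose, with 201.1, 276 and 418 CPM in the AEG-1DMAC-labelled library and 381, 365 and 489 CPM in the AEG-1fl/fl-labelled library.

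Some gene programs of the hepatocyte were graded through the middle band. Of 18 acute phase genes, 12 had the periportal, middle, pericentral order from high to low in both libraries, beside 4.02% of all genes. The carrier protein Hpx, which binds free heme, was among them at 10900, 6731 and 4653 CPM and 12150, 8121 and 6033 CPM. Of 19 genes of fatty acid oxidation and ketogenesis, 14 had the reverse order, beside 31.9% of all genes. Of 12 lipid droplet genes, 10 also had the reverse order. Cidea, which enlarges lipid droplets, had 35.7, 103 and 147 CPM and 42.1, 154 and 197 CPM. None of these lists had a member 1.25-fold above both outer bands in both libraries, beside 1.25% of all genes. With lists of this size, a count so near that share shows nothing about the members.

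The pathway of hepcidin was examined next. The upstream list holds the receptors and SMADs that act on Hamp, and of its 15 members with enough counts, 0 had the falling order of Hamp in both libraries, beside 4.02% of all genes, and 3 had the rising order, beside 31.9%. Counts so near to these shares show nothing about the members. Hjv, the BMP coreceptor hemojuvelin, had 263, 305 and 360 CPM and 223, 223 and 276 CPM. Tfr2, a sensor of iron-loaded transferrin, stayed between 410 and 425 CPM in the first library and between 406 and 429 CPM in the second. Tmprss6, the protease that cleaves hemojuvelin, had 428, 423 and 373 CPM and 448, 473 and 411 CPM. Of the 6 SMAD and STAT3 target genes, 1, Id1, an inhibitor of differentiation and a direct SMAD target, had the order of Hamp in both libraries, at 28.4, 17.8 and 9.59 CPM and 24.1, 16.4 and 11.7 CPM. Epo, the erythropoietin gene on the upstream list, had 0 counts in the middle band of both libraries.

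Among 14 iron genes, 1 stood 1.25-fold above both outer bands in both libraries, beside 98 of all 7837 genes (1.25%). It was Hmox1, the heme oxygenase that macrophages also use to recycle heme, at 31.8, 42.3 and 27.6 CPM and 32.6, 45.0 and 30.6 CPM. Among 16 genes of the IGF list, 2 met that mark, Igfbp3 (11.7, 20.2 and 15.7 CPM; 12.5, 16.0 and 11.98 CPM) and Igfbp7 (113, 185 and 92.2 CPM; 121, 152 and 99.7 CPM), both of which are known from stellate and endothelial cells. Igfbp2 did not meet it, for its excess in the AEG-1fl/fl-labelled library was 0.14 on the log2 scale.

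Over all 7837 genes, 178 (2.27%) were at least 1.25-fold above both outer bands in the AEG-1DMAC-labelled library, 256 (3.27%) in the AEG-1fl/fl-labelled library and 98 (1.25%) in both. Those 98 are 55.1% of the first set and 38.3% of the second. By any amount, 147 of the 178 (82.6%) were also above both outer bands in the AEG-1fl/fl-labelled library, beside 28% of all genes, and 71.5% of the 256 were so in the AEG-1DMAC-labelled library, beside 24%. The reverse was rare. There were 6 genes (0.0766%) 1.25-fold below both outer bands in the AEG-1DMAC-labelled library, 70 (0.893%) in the other, and 0 (0%) in both. The genes nearest to it were low or moderate in every band, such as Aqp11, an aquaporin (28.8, 22.4 and 27.9 CPM; 34.6, 28.7 and 36.4 CPM), and Slc10a1, the bile acid uptake carrier (61.2, 52.2 and 67.7 CPM; 84.7, 61.0 and 80.2 CPM).

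The genes highest in the middle band were those of macrophages and antigen presentation. The 15 with the largest excess in both libraries were Gpnmb, Mmp12, Kctd12, C1qa, Cd52, Itgal, H2-Aa, Axl, Cd68, Lyz2, Lgals3, Cyba, Evl, Vim and H2-Ab1. Gpnmb, a glycoprotein of lipid-laden macrophages, had 10.54, 31.7 and 9.59 CPM along the bands of the AEG-1DMAC-labelled library and 51.3, 105 and 40.4 CPM in the AEG-1fl/fl-labelled library. The macrophage elastase gene Mmp12 had 7.32, 27.7 and 8.13 CPM and 25.7, 51.2 and 18.3 CPM. C1qa, a complement component made by macrophages, had 49.9, 90.6 and 39.9 CPM and 53.2, 101 and 55.9 CPM. H2-Ab1, a chain of MHC class II, had 70.0, 114 and 61.6 CPM and 90.4, 230 and 74.97 CPM (229.6 before rounding). Lgals3, which encodes galectin-3, had 34.5, 95.4 and 36.9 CPM and 54.7, 180 and 108 CPM (180.1 before rounding).

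Nonparenchymal RNA as a whole was highest in the middle band. Of 10 macrophage markers with enough counts, 8 were 1.25-fold above both outer bands in both libraries, beside 1.25% of all genes. The 13 macrophage markers summed to 648, 1083 and 469 CPM along the bands of the AEG-1DMAC-labelled library and to 867, 1022 and 559 CPM in the AEG-1fl/fl-labelled library. The Kupffer cell genes Clec4f, Cd5l and Vsig4 had 118, 569 and 25.4 CPM in the middle band of the first and 55.6, 374 and 16.2 CPM in that of the second. Stellate cell markers summed to 206, 366 and 250 CPM and 278, 336 and 283 CPM (249.5 for the pericentral band of the first), with 1 of 7 past the mark. Endothelial markers summed to 117, 161 and 114 CPM and 72.2, 99.2 and 74.2 CPM, with 0 of 2 past it, and lymphocyte and neutrophil markers to 30.0, 58.9 and 35.0 CPM and 49.5, 74.1 and 54.4 CPM. Cholangiocyte markers had another order in the AEG-1fl/fl-labelled library, summing to 106, 111 and 26.7 CPM in the other and 438, 260 and 96.3 CPM there (259.5 before rounding), mostly from Spp1, which macrophages express too. Erythroid markers, not counted among these 5 lists, summed to 313, 340 and 197 CPM and 187, 227 and 141 CPM (339.7 before rounding).

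The 52 genes of the 5 nonparenchymal lists gave a median of 12.1 counts per 10000 in middle-band cells of the AEG-1DMAC-labelled library, compared with 6.89 in the periportal and 5.82 in the pericentral band. In the AEG-1fl/fl-labelled library the medians were 11.0, 7.04 and 6.26. At 10 or more per 10000 were 58.6% and 52.8% of the middle-band cells, against 34.7% and 35.9% of the periportal and 27.3% and 26.7% of the pericentral cells. The selection on 9 genes thus left cells with RNA of other cell types, and doublets were not called. All of the 9 except Fyb are among the 52, so the sums of the lists are not independent of the selection. By ninths, the summed level of the 52 genes was highest in ninth 4 of both libraries, at 2134 and 1707 CPM. It was 590 and 1051 CPM in ninth 1, and 707 and 870 CPM in ninth 9 (589.7 and 869.5 before rounding). Mitochondrial shares were also somewhat higher in the middle band, with medians of 3.28% and 3.22% against 2.61% to 2.97% in the outer bands.

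**Figure D3:**
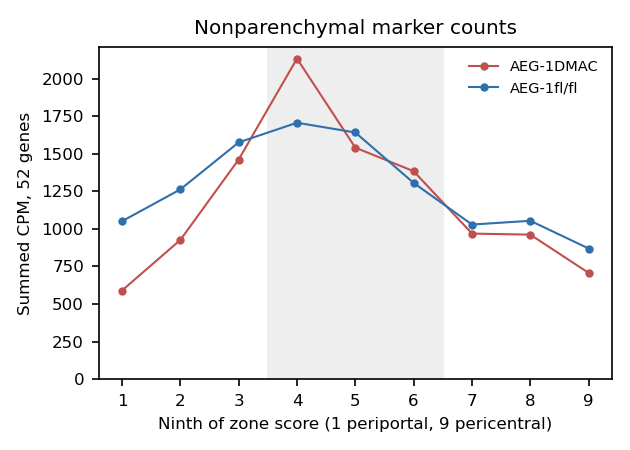
Summed CPM (vertical axis) of 52 marker genes of macrophages, endothelial cells, stellate cells, cholangiocytes, lymphocytes and neutrophils in 9 equal parts of the zone score (horizontal axis, 1 most periportal), 1 line per library, middle band shaded. Both lines are highest in ninth 4, at 2134 CPM in the AEG-1DMAC-labelled library and 1707 CPM in the AEG-1fl/fl-labelled library.

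The same holds for the 98 genes as a set. Of these, 96 (98.0%) were higher in cells with at least 20 nonparenchymal counts per 10000 than in the hepatocytes kept, beside 65.9% of all 7837 genes, and 95 (96.9%) were at least 2-fold higher there, beside 27.7%. Among the 2671 genes lower in those marker-high cells, 2 (0.0749%) were 1.25-fold above both outer bands in both libraries, Cyp21a1 and Mtmr11. They are named here after their values were seen. Cyp21a1, a steroid 21-hydroxylase, had 18.6, 29.8 and 7.26 CPM and 40.2, 62.8 and 27.8 CPM, but 1 cell held 35.2% of its 199 middle-band counts in the AEG-1DMAC-labelled library. Without that library's highest cell its middle value was 19.4 CPM, close to the periportal one. Mtmr11, a myotubularin-related protein, had 21.1, 27.4 and 21.4 CPM and 24.8, 32.7 and 24.6 CPM. Igfbp2 was lower in marker-high cells, by a log2 ratio of -1.78.

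**Figure D4:**
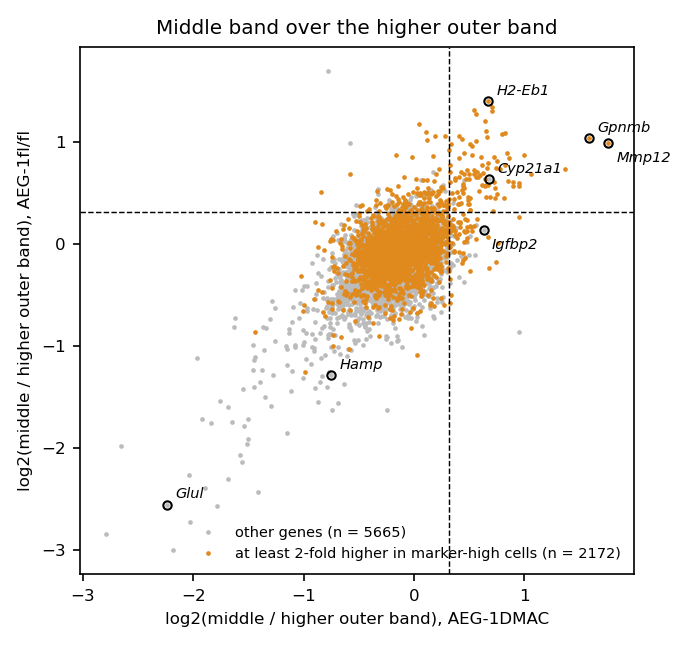
Each point is 1 of 7837 genes, placed by the log2 ratio of its CPM in the middle band to that in the higher outer band, in the AEG-1DMAC-labelled (horizontal axis) and AEG-1fl/fl-labelled library (vertical axis). Orange points are 2172 genes at least 2-fold higher in cells with at least 20 nonparenchymal counts per 10000, dashed lines mark 1.25-fold, and 95 of the 98 genes beyond both lines are orange.

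The middle band was then rebuilt from hepatocytes with fewer than 10 counts per 10000 of the 52 genes, a limit chosen after seeing the data. This left 160 cells per band in the AEG-1DMAC-labelled library and 152 or 153 in the AEG-1fl/fl-labelled library. Hamp had 348, 241 and 103 CPM and 445, 186 and 63.9 CPM, and Igfbp2 117, 196 and 94.6 CPM and 184, 191 and 88.3 CPM, so both kept the order they had in all cells. The genes 1.25-fold above both outer bands in both libraries numbered 19 of 6556 with enough counts. Of the 19, 3 (Cd63, Lgals3 and Map4) were among the 98. Of the 98, only 29 retained enough counts to be measured there, so the others could not be compared. The limit itself took out cells rich in nonparenchymal RNA, so loss of counts and removal of that RNA cannot be told apart. Of the 29, 17 were above both outer bands by any amount in both libraries. The share of all genes so placed in these cells was not taken. The 19 included Myc, a growth regulator, Tnfrsf12a, the TWEAK receptor, and Nfkb2, an NF-kB subunit, which are named here after their values were seen. All of the 19 except Ccdc120 and Tnfrsf12a were higher in marker-high cells than in hepatocytes, Myc by 0.302 and Nfkb2 by 2.13 on the log2 scale. The 52 genes still gave their largest share of counts in the middle band, 0.0540% and 0.0574%. The outer bands had 0.0463% and 0.0478% in the AEG-1DMAC-labelled library and 0.0501% and 0.0476% in the other. Beyond these values, the part of nonparenchymal RNA in the 98 was not tested.

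The second comparison was between the libraries within the middle band, the question being how hepatocytes differ when myeloid cells lack AEG-1. The targeted gene was examined first. Mtdh had 72.1 CPM in the middle band of the AEG-1DMAC-labelled library and 57.9 CPM in that of the AEG-1fl/fl-labelled library (482 and 329 counts), a log2 ratio of 0.32 (0.11 to 0.52). In cells with at least 10 counts per 10000 of the macrophage genes Adgre1, Cd68 and Csf1r (292 and 822 cells), Mtdh had 136 CPM and 31.6 CPM, a log2 ratio of 2.10 (1.86 to 2.35). It was higher in the library that carries the deletion's label, which goes against that label. Whether the Mtdh probes lie in the deleted part of the gene was not examined. The 2 sets of cells were not matched by type of macrophage. Lyz2, whose locus drives Cre, had 1901 and 1240 CPM in the same cells, a log2 ratio of 0.62 (0.57 to 0.67). Libraries are named by their labels throughout, and the direction of every ratio below rests on those labels. All log2 ratios compare the AEG-1DMAC-labelled with the AEG-1fl/fl-labelled library.

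The 3 markers differed little or unevenly. Hamp was nearly level in the middle band, at 173 CPM (163 to 183) and 169 CPM (158 to 180), a log2 ratio of 0.03 (-0.09 to 0.16). The ratio was -0.50 in the periportal and 0.52 in the pericentral band, so the gradient of Hamp was shallower in the AEG-1DMAC-labelled library. Igfbp2 had 212 CPM (201.5 to 223.8) and 200 CPM (188 to 212), a ratio of 0.09 (-0.02 to 0.20), with -0.41 and 0.33 in the outer bands. Hamp2 had 64 and 12 counts, at 9.57 CPM (7.37 to 12.2) and 2.11 CPM (1.09 to 3.69), a ratio of 2.18 (1.28 to 3.21). Its ratio was 0.63 in the periportal and 1.64 in the pericentral band.

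Upstream of Hamp, 0 of 12 receptors and SMADs with enough counts in the middle band (at least 200 together and 20 in each library) passed 1.5-fold in either direction. Their median log2 ratio was 0.00, beside a median of 0.06 over all 7016 genes with such counts. For all genes, 3.69% were 1.5-fold higher and 3.22% 1.5-fold lower in the AEG-1DMAC-labelled library. All 6 target genes of BMP and STAT3 signals were higher there, beside 58.5% of all genes, with a median of 0.35, and 1 passed 1.5-fold, Atoh8, a SMAD-induced transcription factor (37.8 against 20.1 CPM). Of 13 iron genes, 0 were 1.5-fold higher and 2 were 1.5-fold lower. The latter were Lcn2, which encodes the siderophore-binding lipocalin 2, and Trf, the plasma iron carrier transferrin, at 11410 against 20650 CPM. Tfrc, the transferrin receptor, had 10.8 against 19.2 CPM, with too few counts to be included.

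At the 2-fold mark, 50 of the 7016 genes (0.713%) were higher and 55 (0.784%) lower in the AEG-1DMAC-labelled library, 105 in all (1.5%). The periportal band had 82 of 6665 (1.23%), of which 35 were higher (0.525%) and 47 lower (0.705%). The pericentral band had 148 of 7352 (2.01%), of which 78 were higher (1.06%) and 70 lower (0.952%). The numbers of the middle band thus lay between those of its neighbours, although the numbers of genes with enough counts differ. In the hepatocytes with fewer than 10 nonparenchymal counts per 10000, 276 of 5815 genes were 2-fold higher and 54 lower, with a median log2 ratio of 0.24 over all of them. The middle-band cells of that subset had a median of 5349 genes and 1.87% mitochondrial counts in the AEG-1DMAC-labelled library, against 4292 genes and 2.94% in the other, at like depth (22845 and 22307 counts). The part of these differences in the count of genes was not tested.

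The zone genes, which define z, were higher in the middle band of the AEG-1DMAC-labelled library, which describes the cells the score chose. Ranking within each library does not match the score itself, as the median z was 2.93 and 2.52. All 8 had a middle-band log2 ratio above 0. Oat, ornithine aminotransferase, was the highest of all genes with enough counts, at 503 against 77.2 CPM and a ratio of 2.70 (2.56 to 2.85). Oat was detected in 95.9% and 57.7% of the cells, and no cell held more than 9.74% of its counts. Its ratio was 2.21 in the periportal and 1.92 in the pericentral band. Cyp1a2, which metabolizes caffeine, had 217 against 83.9 CPM (1.37), and Glul, glutamine synthetase, 443 against 198 CPM (1.16). Among periportal score genes, Hal, histidine ammonia-lyase, had 104 against 49.2 CPM (1.08), and Cyp2f2 410 against 351 CPM (0.23; 410.4 and 350.8 before rounding).

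Outside the score, the highest library ratios were those of 9 genes of varied function. Cyp2c29 had 581 against 152 CPM in the middle band, a log2 ratio of 1.94 (1.83 to 2.04), and its relative Cyp2c37 24.7 against 8.27 CPM (1.58; 1.10 to 2.08). Abcg5, a subunit of the transporter that exports sterols into bile, had 630 against 209 CPM (630.1 before rounding), a ratio of 1.59 (1.5 to 1.69). Elovl3, which elongates fatty acids, had 83.6 against 24.6 CPM (1.76). Bcl6, a transcriptional repressor that restrains lipid catabolism, had 35.3 against 8.97 CPM (1.98). Ppp1r3c, which directs protein phosphatase 1 to glycogen, had 39.3 against 12.1 CPM (1.70), and Gas2, a growth-arrest protein of the cytoskeleton, 67.3 against 20.8 CPM (1.70). Orm3, an orosomucoid, had 209 against 67.7 CPM (1.63), and Lhpp, a histidine phosphatase, 75.2 against 24.8 CPM (1.60). The ratios of all 9 were above 0 in both outer bands as well, from 0.92 to 2.34.

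The 10 lowest ratios also belonged to genes of varied function. Tubb2b, a beta-tubulin, had 6.13 against 44.9 CPM, a log2 ratio of -2.87 (-3.38 to -2.39). Slco1a1, a male-biased organic anion carrier, had 7.03 against 42.4 CPM (-2.59). Txnip, which restrains glucose uptake, had 176 against 632 CPM (-1.84; -1.94 to -1.75), and Pdk4, which blocks pyruvate oxidation, 11.5 against 45.4 CPM (-1.98). Selenbp2, a selenium-binding protein, had 56.5 against 215 CPM (-1.93), and Cyp4a12b, a fatty acid hydroxylase, 9.87 against 36.8 CPM (-1.90). Gpnmb (31.7 against 105 CPM, -1.73) and Cd63, a tetraspanin of lysosomes (33.9 against 111 CPM, -1.71), were higher in marker-high cells than in hepatocytes, by 2.87 and 1.70 on the log2 scale. So were Txnip (1.43), Pdk4 (0.33) and, on the higher side, Bcl6 (1.28).

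Ccn2, connective tissue growth factor, belongs to the 10 lowest by the same rule, at 19.0 against 75.1 CPM (-1.98). It too was higher in marker-high cells than in hepatocytes, by 4.999 on the log2 scale. However, 1 cell held 335 of its 427 counts in the AEG-1fl/fl-labelled library. Leaving out the highest cell of each library gave 17.1 against 16.3 CPM and a ratio of 0.07. For the other genes of the 10 highest and the 10 lowest, leaving out those cells kept the sign and moved the ratio by at most the step of Gpnmb, from -1.73 to -1.43.

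**Figure D5:**
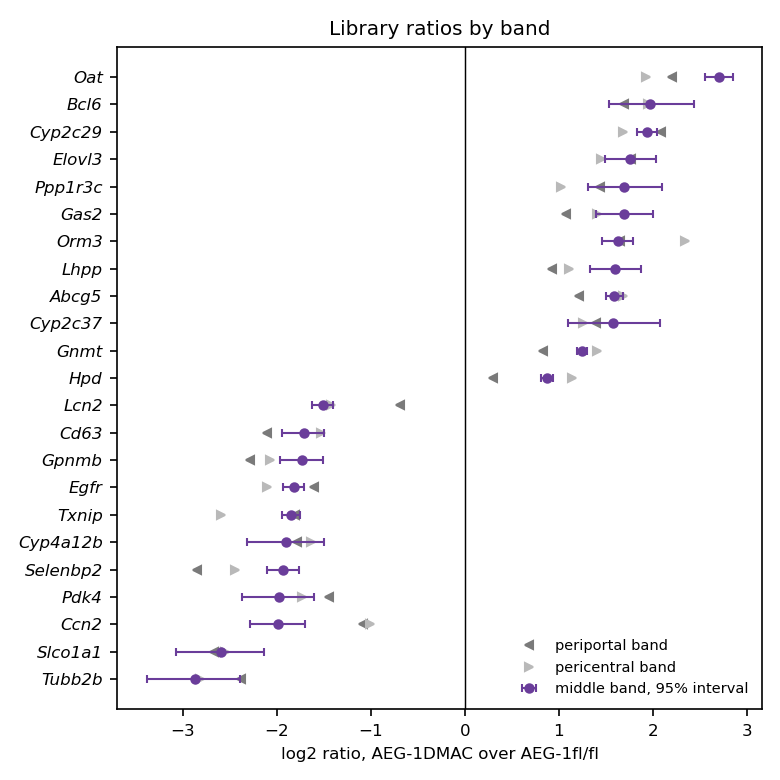
Log2 ratio of CPM in the AEG-1DMAC-labelled to the AEG-1fl/fl-labelled library (horizontal axis) for the 10 highest and 10 lowest genes of the middle band and for Egfr, Lcn2, Gnmt and Hpd (vertical axis). Circles with bars are middle-band values with 95% intervals of the counts and triangles are the outer bands; for each gene the 3 symbols lie on the same side of 0, from Oat at 2.70 to Tubb2b at -2.87.

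Egfr, Lcn2, Gnmt and Hpd are genes that the study discusses in hepatocytes, so they are no independent choice. In the middle band Egfr, the epidermal growth factor receptor, had 130 against 458 CPM, a log2 ratio of -1.82 (-1.93 to -1.71; 129.8 before rounding). Lcn2 had 139 against 395 CPM (-1.51; -1.62 to -1.40). Gnmt, which methylates glycine, had 1604 against 674 CPM (1.25; 1.20 to 1.30), and Hpd, of tyrosine breakdown, 882 against 482 CPM (0.87; 0.81 to 0.94). For Gnmt and Hpd the middle-band ratio lay between the periportal values (0.83 and 0.30) and the pericentral values (1.41 and 1.14). For Lcn2 it was close to the pericentral value of -1.42 and away from the periportal one of -0.69.

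Pathway lists were then described by their counts and medians. Of all 7016 genes with enough counts, 3.69% were 1.5-fold higher and 3.22% 1.5-fold lower in the AEG-1DMAC-labelled library. Of 18 acute phase genes, 13 were lower and 5 higher in the AEG-1DMAC-labelled library, where 58.5% of all genes were higher, with a median log2 ratio of -0.26 against 0.06 for all genes, and 3 were 1.5-fold lower and 2 1.5-fold higher. Apcs, serum amyloid P, had 123 against 203 CPM and Saa1, serum amyloid A, 797 against 1239 CPM, whereas Saa4, a lipoprotein-bound relative, had 193 against 76.2 CPM. Of 10 stress genes, 4 were 1.5-fold lower and 0 higher (median -0.32), among them Jun, a subunit of AP-1, at 133 against 226 CPM. Of 18 genes of fatty acid oxidation, 4 were 1.5-fold lower, Pdk4, Cyp4a10, Cyp4a14 and Fgf21, and 0 higher, with a median of -0.12. Fgf21, a fasting hormone of the liver, had 38.6 against 91.5 CPM.

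Of 11 bile acid genes, 2 were 1.5-fold higher and 1 lower, with a median log2 ratio of 0.37. Beside them, 3.69% of all genes were higher and 3.22% lower by that mark, with a median of 0.06. Nr0b2, the receptor SHP that represses bile acid synthesis, had 64.6 against 23.8 CPM, and Cyp7a1, the rate-limiting enzyme of that synthesis, 153 against 268 CPM. Of 14 lipogenic genes, 1 was 1.5-fold higher and 0 lower (median 0.17). It was Mlxipl, the glucose-responsive factor ChREBP, at 1099 against 620 CPM (619.5 before rounding), and Fasn, fatty acid synthase, had 929 against 727 CPM. Lipid droplet genes had a median of -0.04 (1 of 12 past 1.5-fold, Plin4, a droplet coat protein, at 1031 against 625 CPM), cholesterol genes -0.07 (0 of 14) and the IGF list -0.07 (0 of 16 higher, 2 lower). Of 13 genes of the mTOR and cyclin D1 list, 1 was higher past 1.5-fold (Tsc1) and 1 lower (Ccnd1, cyclin D1, at 24.7 against 45.2 CPM). Only 1 of 17 proliferation genes had enough counts, Pcna, with a ratio of -0.04. Counts of 0 or 1 in these lists are near the shares of all genes and are not read as results.

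Of 16 male-biased liver genes with enough counts, 5 were 1.5-fold lower and 1 higher in the AEG-1DMAC-labelled library, with a median log2 ratio of -0.25. Of all genes, 3.22% were 1.5-fold lower and 3.69% higher, with a median of 0.06. Mup20, a urinary pheromone protein, had 2641 against 5563 CPM and Cyp4a12a 83.9 against 175 CPM, while Elovl3, among the 10 highest ratios above, went the other way. Slco1a1, Cyp4a12b and Egfr, among the 10 lowest ratios, are counted in the 5 as well. The Y-linked genes Ddx3y, Uty, Kdm5d and Eif2s3y were counted in both libraries, at 73.0, 29.6, 24.8 and 53.1 CPM and at 66.0, 22.5, 20.1 and 57.2 CPM. Of 14 female-biased genes, 1 had enough counts. It was Cyp2a4, a steroid hydroxylase, at 62.3 against 38.2 CPM (0.71). Sult1e1, also on the female-biased list, had 146 counts against 1, below the limit of 20 in each library. Of 20 hepatocyte identity genes, 2 were 1.5-fold higher and 1 lower, with a median of 0.01. Among markers of other cells, 4 of 10 macrophage genes were 1.5-fold higher and 3 lower (median 0.06), as were 2 and 0 of 3 endothelial (0.70), 1 and 1 of 6 stellate (0.16), 0 and 0 of 1 lymphocyte or neutrophil (0.58) and 3 and 0 of 4 erythroid genes (0.71). The 1 cholangiocyte gene with enough counts, Spp1, had -1.34. Several of these lists hold few measured genes, so their counts are not read as results. Of 14 periportal and 22 pericentral genes outside the score, 3 and 6 were 1.5-fold higher and 0 and 1 lower, with medians of 0.14 and 0.34.

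The library ratio of the middle band was also set against that of both outer bands. By the largest distance from both, the genes farthest above included Arl4d, Carmil1, Pgap1 and Bhmt, and the 5 farthest below were Ccn1, Atf3, H2-Eb1, Rbpj and Scara5. No test of the difference was possible. Arl4d, a small GTPase, had 85.1 against 50.7 CPM in the middle band, a log2 ratio of 0.75 (0.54 to 0.96), beside 0.05 and 0.03 in the periportal and pericentral bands. Pgap1, a lipid-anchor remodeling enzyme, had 20.9 against 12.8 CPM (0.70; 0.29 to 1.13), beside -0.30 and 0.03. Scara5, a ferritin receptor, had 22.3 against 42.4 CPM (-0.93; -1.23 to -0.63), beside -0.29 and 0.08. H2-Eb1, of MHC class II, had 149.8 against 323.7 CPM (-1.11; -1.22 to -1.0), beside -0.39 and -0.33, and 1 cell held 16.4% of its counts in the AEG-1fl/fl-labelled library. Ccn1, a matricellular protein, had 38.4 against 116 CPM (-1.59), beside 0.20 and -0.01, but 1 cell of the AEG-1fl/fl-labelled library held 41.1% of its 657 counts, and without each library's highest cell the ratio was -0.97.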

How the data were processed

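Single-cell RNA was measured with a probe-based fixed-RNA assay in 1 liver library per genotype. For each cell the files hold whole-number counts of 19059 genes, which the authors deposited without normalization. Per the submitters' processing notes, Cell Ranger 7.1.0, Seurat and mm10 were used. The libraries summed to 79589511 (AEG-1DMAC) and 90440089 (AEG-1fl/fl) counts over 2581 and 3535 cells, with medians of 12742 and 7686 counts per cell. They shared 10 barcodes, 3 and 5 of them among the hepatocytes kept. The mitochondrial limit left 2571 and 3508 cells and the count limits 1165 and 1324, with 382 and 394 cells above and 1024 and 1790 below them. No cell type annotation was used, and doublets were not called.

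Counts were summed per library and band and scaled to CPM in pandas 2.3.3, NumPy 2.4.6 and Python 3.11.15. Intervals came from SciPy 1.17.1, figures from matplotlib 3.10.9 and alignments from Biopython 1.88. Log2 ratios have Clopper-Pearson intervals given the summed count. The calculation was tested on simulated Poisson counts without variation between cells, so that test does not cover counts held by few cells. Comparisons of bands used genes with at least 200 counts in each library and none at 0 in a band, and library ratios used at least 200 counts in the band and 20 in each library. No filter other than these was applied to genes.

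The members and the 27 gene lists were chosen with earlier results of these data known. Named genes were the markers and score genes, Egfr, Lcn2, Gnmt and Hpd, the 15 highest and 8 lowest in the middle against the outer bands, the 10 highest and 10 lowest library ratios, the 5 farthest above and below both outer bands, and up to 4 members of each list. Some list members and the genes said to be chosen after their values were seen fall outside this rule. Alternatives concerned normalization, depth, cell limits, the score and its cuts, and count minimums. Of the listed genes Ftl1, Rps6kb1, Ccnb1, Cyp3a41a, Cyp3a41b, Xist, Mup7, Serpina1e and Mmrn2 were not used here. Some genes that these rules name are not reported here.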

Additional observations from a re-analysis of the deposited data

Results flagged for a closer look

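For 4 of the genes reported here, the log2 ratio of the AEG-1DMAC-labelled to the AEG-1fl/fl-labelled library had opposite signs in the middle band and in an outer band, each past 1.25-fold with an interval of the counts that leaves out 0. The share of all genes so placed is not given here, so the number of these genes is not read as a result. With 1 library per genotype, none of these differences was tested.

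Atf3, a stress-induced transcription factor, had a ratio of -0.51 in the middle band and 1.16 in the periportal band. In the periportal band of the AEG-1DMAC-labelled library 1 cell held 43.6% of its counts, and without each library's highest cell the periportal ratio was 0.47 and the middle ratio -0.49. Sprr1a, a small proline-rich protein induced by injury, had -0.83 against 2.94 in the periportal band. Its counts sat in few cells, with the richest 10% of cells holding 91.3% and 90.9% of them in the middle band, and the ratios without the highest cells were -1.02 and 2.35. The notch effector gene Rbpj had -0.47 in the middle and 0.36 in the pericentral band. Vsig4, a Kupffer cell receptor, had 0.65 (25.4 against 16.2 CPM) and -0.44 in the pericentral band.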

How the results depend on the processing

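With CPM averaged over cells, the log2 library ratio in the middle band was 0.17 for Hamp and 0.22 for Igfbp2, and Igfbp2 stood 0.83 above the higher outer band in the AEG-1DMAC-labelled library. With cells thinned to 8000 counts, Hamp stood at -0.96 and -1.45 against the higher outer band (AEG-1DMAC-labelled and AEG-1fl/fl-labelled library), the Igfbp2 library ratio was 0.30, 45 genes were above both outer bands and 49 past 2-fold. With 12000 to 40000 counts per cell, the Hamp library ratio was 0.35, Hamp2 stood at 0.48 and -0.76, Igfbp2 at 0.41 in the AEG-1fl/fl-labelled library, 55 genes were above both outer bands, and the 2-fold genes were 56 higher and 29 lower. With at most 5% mitochondrial counts, Hamp stood at -0.63 (AEG-1DMAC-labelled) and Igfbp2 at 0.27 (AEG-1fl/fl-labelled), with an Igfbp2 library ratio of -0.040. Below 1 nonparenchymal count per 10000, Hamp stood at -1.46 (AEG-1fl/fl-labelled), its library ratio was 0.26, 49 genes were above both outer bands, and 84 were 2-fold higher and 51 lower. With the first, middle and last of 5 equal bands of the score, Hamp stood at -1.46 and Hamp2 at -3.08 (AEG-1fl/fl-labelled), Igfbp2 at 1.06 (AEG-1DMAC-labelled), with an Igfbp2 library ratio of 0.34. With equal weight of the score genes, Hamp stood at -1.50 and Igfbp2 reversed to -0.19 (AEG-1fl/fl-labelled), with a Hamp library ratio of 0.30. Without Cyp2e1 and Cyp2f2, Hamp stood at -1.11 and -1.46, Igfbp2 reversed to -0.14 (AEG-1fl/fl-labelled), its library ratio was 0.22, and 29 genes were above both outer bands. With median-of-ratios scaling, Hamp stood at -0.92 and Igfbp2 at 0.46 (AEG-1DMAC-labelled), and 41 genes were 2-fold higher and 65 lower. At least 50 counts per gene gave 301 genes above both outer bands and 264 past 2-fold (89 higher, 175 lower), and no minimum gave 628 and 1399, as more genes of low counts entered. Chosen after seeing the data, cells below 10 counts per 10000 of the 52 nonparenchymal genes gave Hamp at -0.53 (AEG-1DMAC-labelled), a Hamp library ratio of 0.38, 19 genes above both outer bands and 330 past 2-fold, and genes lower in marker-high cells alone gave 2 above both outer bands. Except for the count minimums and the last, which by construction change the genes measured, the cause was not tested. In the 12 alternatives that changed cells, scores or scaling, Hamp stayed below the periportal band in both libraries and Igfbp2 above both outer bands in the AEG-1DMAC-labelled library. Of 137 values under alternatives, 95 were within 1.5 times (counts) or within counting error (ratios) of the values reported. No paired analysis was possible because each genotype had 1 library and no test was made.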

Other observations

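Sult1e1, the estrogen sulfotransferase, is on the list of female-biased liver genes described above, but had too few counts to be included there. It was chosen after its values were seen. It had 146 counts in 27.6% of the middle-band cells of the AEG-1DMAC-labelled library and 1 count in the AEG-1fl/fl-labelled library, at 21.8 and 0.176 CPM, a log2 ratio of 6.96 with a counting interval of 4.45 to 12.3. In the periportal band it had 305 and 12 counts and in the pericentral band 42 and 3, so it was highest on the periportal side in the library where it was counted.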
